A study of Homo sapiens with 2 samples.

Results

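Many human genes can be transcribed from more than 1 start, and the starts of 59 genes were examined at which C/EBPβ peaks were listed at separate places along the same gene. Members were chosen from the deposited list of peak and transcript pairs by position alone. The middle of each peak minus its listed distance gave the transcription start it had been paired with. A gene was taken when, on 1 chromosome, peaks lay within 1000 bases of starts that were at least 6000 bases apart. All listed peaks of such a gene were members, which gave 211 of the 7029 peaks in the list, 169 of them within 1000 bases of a start of the gene and 42 farther away. The 59 genes were 1.26% of the 4701 gene symbols with a peak within 1000 bases of a start (95% exact binomial interval 0.957 to 1.62, which covers counting error only). The list reaches 3000 bases from a start, so starts 6000 bases apart do not share a peak.

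The study mapped C/EBPβ along the genome of HL-60 cells by chromatin immunoprecipitation followed by sequencing (ChIP-seq), with the stated aim of finding genes bound by the factor. HL-60 is a human leukaemia line, described in the labels as myeloblasts, and all cells carried C/EBPβ overexpression. The library with the C/EBPβ antibody and the input library made without antibody were single samples, so nothing below is tested between samples and each value describes 1 library. The list gives neither peak height nor depth, and cells without overexpression were not analysed here. Peak positions are on build hg19.

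A gene's alternative promoters let separate control regions feed 1 gene. They can change the first exon and the start of the protein, or only the leader of the mRNA, and many are used in particular cell types or after particular signals. C/EBPβ is a basic leucine zipper factor that binds DNA as a dimer and acts in myeloid differentiation and inflammatory gene expression. RUNX1, the founding member of the core-binding factor family in blood development, is the textbook case of a gene with a distal and a proximal promoter.

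For 26 of the 59 genes, 2 RefSeq starts in GRCh38 had the same spacing as 2 of the listed hg19 starts to within 100 bases. The pairing used spacing alone and carried no position from 1 build to the other. In some genes more than 1 RefSeq pair passed, such as 4 for UBE2D3 and 2 for ELMO1, and the pair closest in spacing was kept. A RefSeq start can differ from the start in the list by up to that tolerance or more. The 300 bases around each such start, 250 before and 50 after it, were searched on both strands for TTGCNNAA, the core that C/EBP dimers prefer, and for TGATGCAA, a site on which C/EBP and ATF proteins can pair. The palindrome TTGCGCAA is contained in the first motif. Among the 52 windows 6 held a match, and these are shown together with 4 windows of NCOA7, FOXP1 and PRDM1 that held none, chosen after their values were seen because the genes are described below. Letters are from RefSeq, build GRCh38.p14, 5′ to 3′ along the gene, and capitals mark the motif matches.
NCOA7 upstream start, chr6:125780865-125781164, plus strand: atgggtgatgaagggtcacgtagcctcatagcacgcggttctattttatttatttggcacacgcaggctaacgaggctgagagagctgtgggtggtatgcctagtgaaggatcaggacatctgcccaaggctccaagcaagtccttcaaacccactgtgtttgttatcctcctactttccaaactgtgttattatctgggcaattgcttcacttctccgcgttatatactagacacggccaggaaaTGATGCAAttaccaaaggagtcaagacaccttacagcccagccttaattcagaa
NCOA7 downstream start, chr6:125919005-125919304, plus strand: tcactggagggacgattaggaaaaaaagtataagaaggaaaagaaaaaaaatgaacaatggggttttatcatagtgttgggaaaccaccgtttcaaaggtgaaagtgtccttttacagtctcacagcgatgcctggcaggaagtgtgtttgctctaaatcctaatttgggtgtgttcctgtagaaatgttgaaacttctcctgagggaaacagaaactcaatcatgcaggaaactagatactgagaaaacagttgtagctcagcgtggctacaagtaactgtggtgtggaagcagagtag
CDYL downstream start, chr6:4889790-4890089, plus strand: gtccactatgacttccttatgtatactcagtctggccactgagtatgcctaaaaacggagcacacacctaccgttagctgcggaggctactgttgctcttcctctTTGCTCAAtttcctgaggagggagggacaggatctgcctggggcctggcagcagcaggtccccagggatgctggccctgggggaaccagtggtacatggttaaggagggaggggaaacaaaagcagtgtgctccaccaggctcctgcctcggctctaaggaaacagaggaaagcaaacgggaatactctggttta
SMAP2 downstream start, chr1:40396550-40396849, plus strand: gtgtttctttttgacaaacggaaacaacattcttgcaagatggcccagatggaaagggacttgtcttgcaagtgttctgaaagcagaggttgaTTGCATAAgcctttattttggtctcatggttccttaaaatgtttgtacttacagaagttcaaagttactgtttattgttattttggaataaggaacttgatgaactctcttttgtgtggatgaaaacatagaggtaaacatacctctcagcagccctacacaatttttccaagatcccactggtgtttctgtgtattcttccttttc
TRAF3IP3 downstream start, chr1:209768315-209768614, plus strand: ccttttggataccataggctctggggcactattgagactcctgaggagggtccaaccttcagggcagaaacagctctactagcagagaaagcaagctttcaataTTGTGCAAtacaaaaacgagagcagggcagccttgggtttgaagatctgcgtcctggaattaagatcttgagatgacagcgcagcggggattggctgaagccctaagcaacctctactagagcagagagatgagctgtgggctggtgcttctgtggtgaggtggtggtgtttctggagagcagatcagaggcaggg
SLC25A25 downstream start, chr9:128098257-128098556, plus strand: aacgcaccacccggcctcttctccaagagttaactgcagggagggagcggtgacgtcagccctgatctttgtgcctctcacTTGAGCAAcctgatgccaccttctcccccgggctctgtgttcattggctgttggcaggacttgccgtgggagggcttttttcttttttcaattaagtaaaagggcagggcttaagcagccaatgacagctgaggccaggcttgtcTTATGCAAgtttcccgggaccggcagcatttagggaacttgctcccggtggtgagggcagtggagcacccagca
ELMO1 upstream start, chr7:37449277-37449576, minus strand: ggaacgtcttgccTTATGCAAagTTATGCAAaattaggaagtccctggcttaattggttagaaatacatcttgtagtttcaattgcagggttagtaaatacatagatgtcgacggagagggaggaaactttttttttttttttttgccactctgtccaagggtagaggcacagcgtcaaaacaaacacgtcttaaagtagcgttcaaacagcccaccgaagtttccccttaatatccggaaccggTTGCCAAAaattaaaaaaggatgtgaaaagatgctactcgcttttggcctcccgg
FOXP1 downstream start, chr3:71543508-71543807, minus strand: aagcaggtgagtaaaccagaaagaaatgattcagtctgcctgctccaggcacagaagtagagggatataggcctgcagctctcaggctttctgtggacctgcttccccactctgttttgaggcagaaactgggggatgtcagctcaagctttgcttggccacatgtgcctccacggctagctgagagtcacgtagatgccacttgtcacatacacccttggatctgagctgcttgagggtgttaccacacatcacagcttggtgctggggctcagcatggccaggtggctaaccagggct
PRDM1 upstream start, chr6:106086086-106086385, plus strand: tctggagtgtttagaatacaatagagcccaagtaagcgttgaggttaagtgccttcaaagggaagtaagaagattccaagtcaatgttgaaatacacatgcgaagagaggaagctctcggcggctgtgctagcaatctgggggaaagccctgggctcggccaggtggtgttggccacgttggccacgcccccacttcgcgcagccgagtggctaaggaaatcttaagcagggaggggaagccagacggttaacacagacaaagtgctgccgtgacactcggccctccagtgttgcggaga
PRDM1 downstream start, chr6:106098691-106098990, plus strand: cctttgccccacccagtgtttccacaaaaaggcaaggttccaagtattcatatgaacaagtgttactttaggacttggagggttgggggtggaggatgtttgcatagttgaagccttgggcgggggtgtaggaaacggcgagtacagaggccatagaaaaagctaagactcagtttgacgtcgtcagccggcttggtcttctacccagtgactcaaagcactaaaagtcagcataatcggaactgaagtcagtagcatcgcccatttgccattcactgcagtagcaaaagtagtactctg

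Positions below count along the gene, with the start at 0 and negative numbers before it. If the GRCh38 start is the listed one, the NCOA7 match TGATGCAA at −4 to 3 fell inside the nearest peak, whose middle lay at −49 and which was 400 bases wide. The CDYL match TTGCTCAA began at −145 and the peak middle was at −132, with a width of 146 bases. At SMAP2 the match TTGCATAA began at −157 and the peak middle was at −130. At TRAF3IP3 the match TTGTGCAA began at −146 and the peak middle was at −89. SLC25A25 had TTGAGCAA from −169 and TTATGCAA from −24, around a peak middle at −79. The 3 matches at ELMO1, from −237, −227 and −5, all lay before the peak, which ran from 221 to 451 after the start used for spacing. In all, 6 of the 9 matches fell within the span of the nearest peak. That span covered most of the window at NCOA7 (−249 to 151), TRAF3IP3 (−236 to 58), SMAP2 (−243 to −17) and SLC25A25 (−188 to 30). It covered part of the window at CDYL (−205 to −59) and none of it at ELMO1. Whether 6 of 9 is more than such coverage alone would give was not tested.

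TTGCNNAA was found in 14 of the 177 RefSeq windows of member genes (7.91%, 95% exact interval 4.39 to 12.9) and in 3673 of all 35116 windows (10.5%). TGATGCAA was found in 2 of 177 (1.13%) and in 304 of 35116 (0.866%). The palindrome TTGCGCAA was in 53 of all windows (0.151%) and in none of the 177, where a count of 0 allows up to 2.06%. The 177 windows came from 57 genes and some overlap, while the intervals treat each window as independent and so may be too narrow. The windows do not follow the peaks, and the sequence under the peaks was not analysed here.

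The separated starts lay between 6188 and 464212 bases apart, with a median of 22952 bases. In 10 genes the outermost starts with a near peak were under 10000 bases apart, in 17 between 10000 and 20000, in 15 between 20000 and 50000, in 7 between 50000 and 100000, and in 10 farther. NCOA7 alone had 3 starts that were all at least 6000 bases apart, and the other 58 genes had 2. The genes lay on 21 chromosomes, and 54 were protein-coding and 5 were long noncoding RNA genes.

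**Figure D1:**
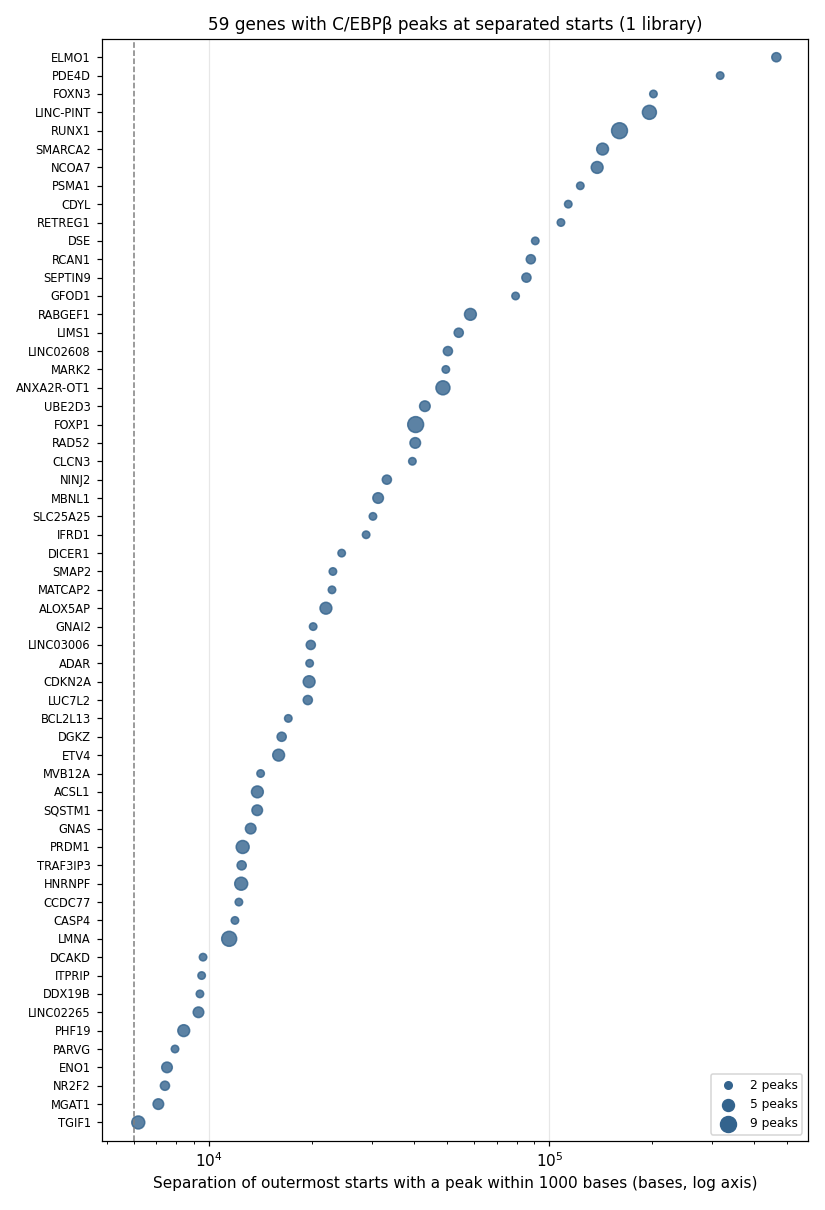
Separation of the outermost starts that have a peak within 1000 bases, in bases on a log axis, for the 59 genes, with point area set by the number of listed peaks of the gene. The dashed line marks the 6000 bases that the rule requires. Points run from TGIF1 at 6188 bases to ELMO1 at 464212 bases, and RUNX1 and FOXP1 carry the most peaks, 9 each.

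Members close to the limits show how the rule cuts. Just inside the spacing limit were TGIF1 at 6188, MGAT1 at 7089 and NR2F2 at 7412 bases, and just outside were ATP5F1A at 5880, SET at 5575 and ARHGAP45 at 5413. By distance, GNAI2 was just inside, with its upstream start 879 bases from the nearest peak, followed by RAD52 at 866 and DICER1 at 857. TSPOAP1-AS1, NFIC and INPP5B would have entered at limits of 1053, 1071 and 1081 bases.

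The members are described below by role. Roles were assigned to members only, so the counts per role have no share over all genes beside them and show no preference for a role. Among the members were 7 transcription factor genes, which held 40 of the 211 peaks, with 9 each in RUNX1 and FOXP1. RUNX1, on the minus strand of chromosome 21, had 9 peaks in 2 groups 160608 bases apart. The upstream start, 36421595, the distal promoter P1 from which the RUNX1c transcript begins, had peak middles at −2275, −1285, −50, 389 and 1749. The peak at −50 ran from 36421422 to 36421869. The downstream start at 36260987, the proximal promoter P2, had peak middles at −1357, −525, 379 and 1139. The peak at 379 was the widest of the gene, at 769 bases (36260224 to 36260993), and its border reached across the start. Thus 2 peaks lay within 1000 bases at each RUNX1 start.

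FOXP1, a forkhead repressor that acts in lymphoid and monocyte development, also had 9 peaks, on chromosome 3. A group of 5 surrounded the upstream starts at 71632904 and 71633140, with the nearest middle 39 bases before the second of them and widths of 148 to 289 bases. The downstream start at 71592708, whose window is printed above, had a peak middle 2 bases after it (71592612 to 71592801) and another at 406. The remaining 2 peaks lay 2040 and 2705 bases from another start at 71114074 and so did not count towards the rule. The outermost FOXP1 starts with a near peak were 40432 bases apart.

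PRDM1 encodes BLIMP-1, a repressor of B cell and myeloid genes, and its internal start gives a shorter protein. It had 6 peaks on chromosome 6. Around the upstream start at 106534194 the middles lay at −1399, −157, 156 and 1983, so that the nearest peaks flanked the start at almost equal distance. At the internal start at 106546736 they lay at 62 and 557, both after the start. Its peaks were narrow, from 146 to 262 bases.

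TGIF1, a homeodomain repressor in TGF-β signalling, had the smallest separation and 6 peaks on chromosome 18. Its starts are spread rather than paired, and a single peak of 931 bases (3449162 to 3450093) covered the starts at 3449410 and 3449648. The member status of TGIF1 rests on a peak 387 bases after the start at 3453771 and another 826 bases after 3447583. ETV4, an ETS factor, had 5 peaks on chromosome 17, with the nearest at 49 bases from the start at 41607803 and 92 bases from that at 41623305. Upstream and downstream are not assigned for ETV4. NR2F2, an orphan nuclear receptor, had 3 peaks, and the 647-base peak at its first start lay nearer a start of the antisense gene NR2F2-AS1 (406 against 785 bases). FOXN3, a forkhead repressor, had 1 peak at each of 2 starts 202040 bases apart. The peak at its downstream start was 221 bases away and only 22 bases from a start of FOXN3-AS1.

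**Figure D2:**
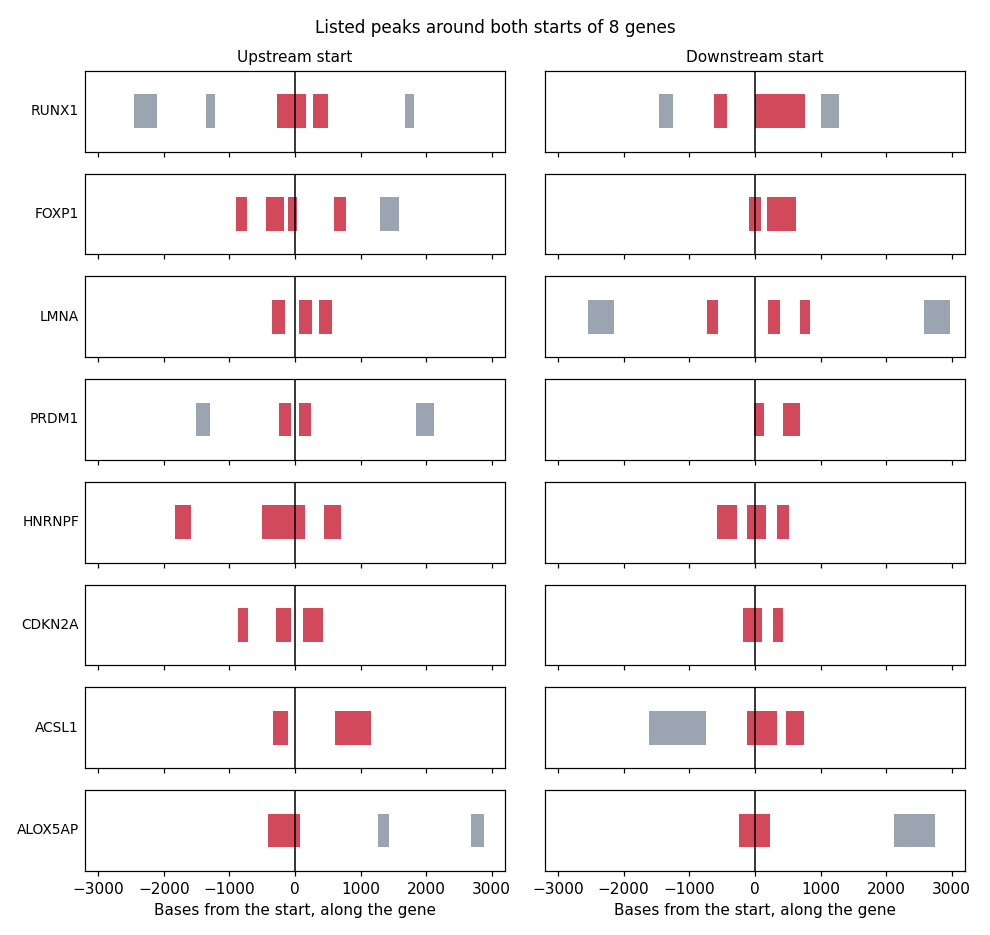
Listed peaks around the upstream and the downstream start of 8 genes, drawn to scale in bases along the gene from the start nearest a peak (black line at 0), with red bars for peaks within 1000 bases of any start of the gene and grey bars for peaks farther away. Groups of 2 or more red peaks stand at both starts of RUNX1, FOXP1, LMNA, PRDM1, HNRNPF, CDKN2A and ACSL1, while ALOX5AP has 1 red peak at each.

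Chromatin genes were represented by SMARCA2, PHF19 and CDYL. SMARCA2 encodes the ATPase BRM of SWI/SNF remodelling complexes, and short transcripts begin inside the gene. Its main start at 2015218 on chromosome 9 had a 508-base peak at 657 and 2 more peaks at 1646 and 1920. The internal starts, 143237 bases from the first at most, had a peak 68 bases after 2158455 and another 869 bases before 2157679. PHF19, a polycomb-associated protein gene, had 5 peaks, the widest 614 bases, and CDYL, a chromodomain corepressor gene, had 1 peak at each of 2 starts 113546 bases apart.

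ADAR held the 2 widest of the 211 member peaks. This RNA processing gene encodes the RNA-editing enzyme ADAR1, whose long interferon-inducible and short constitutive forms come from separate promoters. Its 2 peaks were on chromosome 1 and were 965 bases (154580201 to 154581166) and 945 bases (154599427 to 154600372) wide. The first lay 41 bases after the start at 154580724 and the second 557 bases after that at 154600456. HNRNPF, a splicing regulator, had 6 peaks, 3 at each of 2 start regions 12417 bases apart at most. All 6 lay within 1000 bases of a start, the nearest at 23 bases. MBNL1, a splicing regulator sequestered by RNA repeats in myotonic dystrophy, had a 705-base peak 168 bases before its downstream start. LUC7L2, a splicing factor gene lost in some myeloid neoplasms, had 634- and 745-base peaks at its upstream start, which were nearer a start of FMC1 or its readthrough transcript, at 28 and 152 bases. DICER1, the microRNA-processing nuclease gene, had narrow peaks of 156 and 182 bases, and DDX19B, an mRNA export helicase gene, had 1 peak at each start.

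Genes of inflammation, adhesion and the cytoskeleton numbered 8. ALOX5AP encodes the protein that presents arachidonic acid to 5-lipoxygenase for leukotriene synthesis. It had 5 peaks on chromosome 13. A 491-base peak lay 168 bases before the upstream start at 31287614 and a 469-base peak 10 bases before the downstream start at 31309644, the start of its standard transcript. A further peak, of 632 bases, lay 2430 bases after the downstream start. CASP4, the inflammatory caspase that senses bacterial lipopolysaccharide, had a single peak at each start on chromosome 11, with middles 56 bases before 104839325 and 29 bases before 104827422. ELMO1, which works with DOCK proteins in Rac activation and engulfment, had the largest separation, with peaks 38 bases before the start at 37488555 and 45 bases after that at 37024717. The remaining ELMO1 peak was 1283 bases from a start between them. The other 5 genes were PARVG, LIMS1, TRAF3IP3, NINJ2 and SEPTIN9. NINJ2, an adhesion molecule gene, had peaks within 97 bases at both starts.

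Signalling genes numbered 7. GNAS, the imprinted locus of the stimulatory G protein, had a 293-base peak 455 bases after 57414794, the start of the NESP55 transcript. It also had a group of 3 peaks 816, 1534 and 2019 bases after 57428035, the start of the XLαs transcript. PDE4D encodes a cyclic AMP phosphodiesterase with many promoters. It had 2 peaks on chromosome 5 at almost the same offset, 146 and 148 bases before starts 317388 bases apart. RCAN1, a calcineurin inhibitor with a calcineurin-responsive internal promoter, had peaks 121 bases from the internal start and 101 bases from the upstream start, 88133 bases away at most. GNAI2, DGKZ, MARK2 and ITPRIP each had 2 or 3 peaks.

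Genes of metabolism and transport numbered 7, and ACSL1, which activates long-chain fatty acids, had the most peaks among them. At its upstream start on chromosome 4, 185747268, peaks lay at −219 and 886. At the downstream start at 185733413 they lay at −1176, 112 and 614, with widths of 874, 459 and 271 bases. ENO1, a glycolytic enzyme gene, had 3 peaks at its main start, the nearest 34 bases away, and 1 peak 391 bases from a downstream start. MGAT1, an N-glycan branching enzyme gene, had a peak 4 bases from a start. DSE, CLCN3, SLC25A25 and DCAKD had 2 peaks each, 1 per start.

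Protein turnover and traffic genes numbered 7. SQSTM1, the autophagy receptor p62, had 4 peaks, with a 493-base peak 611 bases after an upstream start and another 246 bases after the start of the main transcript. UBE2D3, a ubiquitin-conjugating enzyme gene, had 4 peaks, all within 1000 bases of a start. PSMA1 is a core proteasome subunit gene, RETREG1 encodes an ER autophagy receptor, and RABGEF1, MVB12A and SMAP2 act in endosomal or Arf-dependent traffic.

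CDKN2A encodes the cell cycle inhibitors p16INK4a and ARF from separate first exons, and both starts carried peaks. On chromosome 9, the ARF start at 21994490 had peak middles at −792, −171 and 274. The starts of the p16INK4a transcripts at 21974826 and 21975132 shared 2 peaks, the nearest 37 bases before the first of them. The ARF peaks at −171 and −792 were nearer a start of CDKN2B-AS1, at 128 and 493 bases. LMNA, the lamin A and C gene, had 8 peaks on chromosome 1. At the upstream start at 156084460 they lay at −254, 162 and 461, and at the downstream start at 156095907 they lay at −2347, −646, 292, 761 and 2776. The 3 peaks within 1000 bases at each LMNA start were 157 to 206 bases wide. RAD52, a DNA repair gene, and BCL2L13, a mitophagy receptor gene of the BCL2 family, completed the group.

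The 5 noncoding RNA genes had 24 peaks, from 3 to 7 each. LINC-PINT, a p53-induced noncoding RNA, had 7 peaks on chromosome 7 across 196606 bases, with middles 12 and 64 bases from separated starts. The peak at the upstream start was also 115 bases from a start of MKLN1. ANXA2R-OT1 had 7 peaks, and LINC02265, LINC02608 and LINC03006 had 3 or 4. The remaining genes were NCOA7, IFRD1, GFOD1, CCDC77 and MATCAP2. NCOA7, an oxidation resistance and nuclear receptor coactivator gene, has an internal start whose short isoform is induced by interferon. Its 3 starts at 126102306, 126111908 and 126240369 on chromosome 6 had nearest peak middles at −49, 15 and 23.

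Upstream and downstream starts of the same gene were then set side by side. Strand was taken from the RefSeq windows and gave an order for 57 genes. The nearest peak middle was a median of 193 bases from the most upstream start (95% binomial order interval 141 to 309) and 148 bases from the most downstream start (97 to 244). The downstream start had the nearer peak in 34 genes and the upstream start in 23. The upstream start had more near peaks in 12 genes, the downstream start in 7, and the numbers were equal in 38. Nearest peaks had median widths of 266 bases upstream and 236 bases downstream, with overlapping intervals of 200 to 319 and 209 to 261. A peak within 250 bases stood at both of 2 separated starts in 25 genes, and within 50 bases in 3, FOXP1, ELMO1 and NCOA7.

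**Figure D3:**
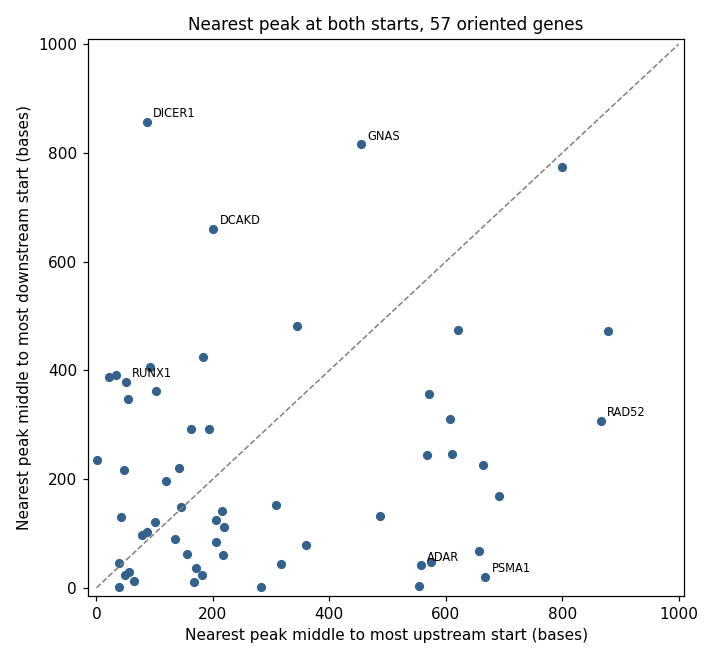
Distance in bases from the most upstream start or group of starts (x axis) and from the most downstream (y axis) to the nearest peak middle. Each of the 57 genes with a known strand is 1 point. The dashed line marks equal distance, and 34 points lie below it, nearer the downstream start, against 23 above it.

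Base composition of the windows, which the rule did not use, was set beside that of other genes with separated starts. In the 26 genes with matched pairs the median count of CG dinucleotides in 300 bases was 20.5 at the upstream and 9.5 at the downstream start. The upstream window had more in 16 of 26 genes (61.5%, 95% exact interval 40.6 to 79.8). Among 332 other genes with RefSeq starts at least 6000 bases apart and a listed peak within 1000 bases, the medians of the outermost windows were 24 and 8, and the upstream window had more in 219 (66.0%, 60.6 to 71.0). Among all 1836 other genes with such starts, with or without a listed peak, it had more in 1170 (63.7%). The members' interval includes both shares and an even split. Member pairs were matched by spacing to starts with a near peak and need not be the outermost, so the pairs were not chosen alike. The difference between members and other genes was not tested.

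Near peaks of members lay on either side of the start. Their middle was before the start in 83 of 163 (50.9%, 95% exact interval 43.0 to 58.8), against 46.1% of 3807 other near peaks (44.5 to 47.7). These shares are not measured alike. Member peaks were placed by the nearest start of the member gene, and other peaks by the nearest start of any gene. For 15 of the 169 near member peaks a start of another gene was closer. The difference was not tested. The 169 member peaks within 1000 bases had a median width of 242 bases (95% binomial order interval 223 to 266), and the 4775 other peaks within 1000 bases had a median of 231 (227 to 235). Peaks of 500 bases or more made up 16 of 169 (9.47%, 95% exact interval 5.51 to 14.9), against 7.48% of the other near peaks. These came from ADAR, TGIF1, RUNX1, LUC7L2, MBNL1, HNRNPF, GNAS, NR2F2, PHF19, MARK2, IFRD1, ACSL1, CCDC77 and SMARCA2. The narrowest width in the list, 146 bases, was also the narrowest among members.

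**Figure D4:**
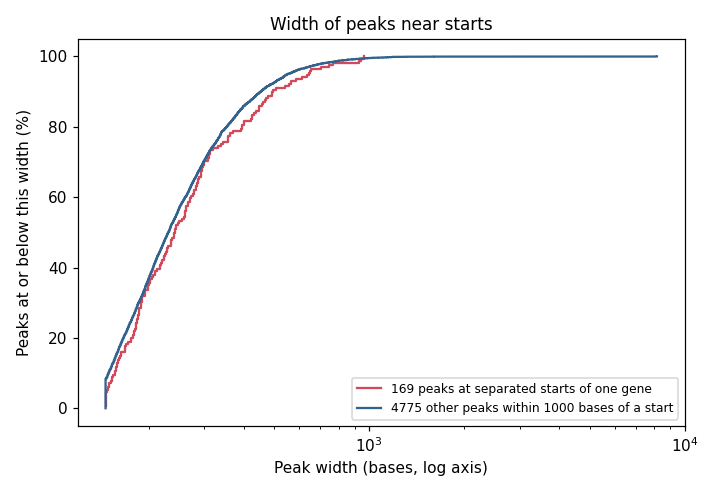
Cumulative share of peaks (per cent) by width in bases on a log axis, for the 169 peaks within 1000 bases of the members' starts (red) and the 4775 other peaks within 1000 bases of a start (blue). The curves have medians of 242 and 231 bases, and the widest member peak is 965 bases.

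RefSeq windows of GRCh38 give 2 or more starts at least 6000 bases apart for 377 genes that had a listed peak within 1000 bases of a start. Of these, 45 were members (11.9%, 95% exact interval 8.84 to 15.6). The other 14 members were not among the 377. In 11 of the 45 the table held more separated starts than had peaks, for example 7 for PDE4D and for SEPTIN9 and 6 for FOXP1.

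Counts of members are given for 6 gene lists. Of 28 genes known for alternative promoters, 16 had a peak within 1000 bases and 5 were members, CDKN2A, FOXP1, GNAS, LMNA and RUNX1. That list was written with some of these genes already seen in the data and is no independent evidence. Of 58 haematopoietic transcription factor genes 32 had a near peak and 2 were members, RUNX1 and FOXP1. SMARCA2 was the only member among the 32 genes with a near peak in the list of chromatin regulators. That list does not hold PHF19 and CDYL, described above as chromatin genes. The lists are not complete, so the counts describe the listed genes only. There was no member among 24 signalling kinase and phosphatase genes, 23 myeloid receptor and adhesion genes or 2 neuronal genes with a near peak. The background for these counts is the 1.26% of all symbols with a near peak. A gene with 1 start cannot be a member, so the counts were also taken among genes with 2 or more separated RefSeq starts and a near peak, for which the background is 11.9%. The RefSeq windows do not hold all starts in the list, and only 45 of the 59 members have separated starts there. RUNX1 does not, so it drops out of the counts that follow. There, 4 of 10 genes known for alternative promoters were members, as were 1 of 9 haematopoietic transcription factor genes, 1 of 4 chromatin regulators and none of 6 kinase and phosphatase genes. The receptor and neuronal lists had 1 such gene each and no member. No list was tested.

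A peak near a member's start was in some cases also near another gene. Of the 169 near peaks, 36 in 26 genes were paired with another gene too, and 15 in 13 genes lay closer to the other gene's start. No such share is given for other near peaks, so these counts describe the members only. When each peak counted only for its nearest start, 49 of the 59 genes still met the rule. The 10 that did not were ANXA2R-OT1, DCAKD, DSE, FOXN3, GNAI2, LUC7L2, MATCAP2, MVB12A, NR2F2 and RAD52. At MVB12A, for example, the upstream peak lay 317 bases from its own start and 280 bases from that of the interferon-induced gene BST2 or of the neighbouring BISPR. At DCAKD the peak lay 201 bases from its own start and 12 bases from that of NMT1. Which gene such a peak acts on cannot be told apart in this list.

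The running numbers in the peak names count peaks that the list leaves out, if numbering was complete. They rise with position on all 23 chromosomes. Between the near peaks of the outermost starts lay 87 numbers over the 59 genes. Of these, 28 belonged to listed peaks, among them peaks that the rule used, such as 2 of NCOA7, and 59 belonged to none. The unlisted numbers came to 1.78 per 100 kb of separation, against 0.647 per 100 kb over all chromosomes, a comparison not tested and not adjusted for gene density. By gene, the density of unlisted numbers was highest at ALOX5AP, 9.08 per 100 kb, followed by SMAP2 at 8.66 and FOXP1 at 7.42. RUNX1 had the most unlisted numbers between its starts, 8, or 4.98 per 100 kb. ELMO1 had 6, FOXN3 5, and LINC-PINT and PSMA1 4 each. PDE4D had none across 317388 bases and RETREG1 none across 108060, and 35 genes in all had none.

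**Figure D5:**
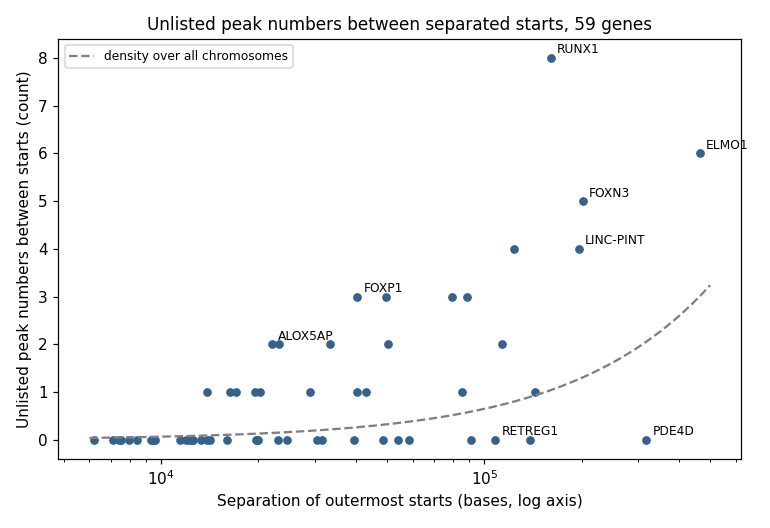
Count of peak numbers that belong to no listed peak and lie between the near peaks of the outermost starts (y axis) against the separation of the starts in bases on a log axis, for 59 genes. The dashed line is the density of unlisted numbers over all chromosomes, 0.647 per 100 kb. RUNX1, with 8 across 160608 bases, stands highest, and PDE4D has none across 317388 bases.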

How the data were processed

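The C/EBPβ immunoprecipitation and input libraries are single samples of 1 cell line each. The build hg19 and the tools MACS2 2.1.1, BWA 0.7.10 and SAMtools are named, per the submitters' processing notes, without role or setting. The authors' deposited list pairs 7029 peaks with 12532 transcripts in 17637 rows. Its deposited score is a function of distance alone, exp(−(0.5 + 4 × |distance| / 3000)), to within 4.99989e-13, and carries no peak strength, so it was not used. Neither depth, nor the peak threshold, nor whether positions count from 0 or 1 is given in the sources used.

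Starts were the peak middle minus the distance, rounded down, and 3742 of 3743 transcripts with several peaks gave 1 start. Starts of a gene were grouped from the lowest position, a new group beginning 6000 bases or more from the first start of the last group. Gene names, strand and promoter letters came from RefSeq tables of GRCh38.p14 by transcript accession, with no position carried between builds. A symbol turned into a date by a spreadsheet, SEPTIN9, was recovered in this way. The members, roles and gene lists were chosen with earlier results of these data known. Named genes followed a rule covering 29 members (most starts or peaks, extreme separation, widest, nearest at both starts, list members). The count for 1 further gene list is not reported here. The others were named to account for all members. Intervals are exact (Clopper-Pearson) or order-statistic 95% binomial intervals and cover counting error over peaks, genes or windows only. The rule was tested on simulated data. Python 3.11.15, pandas 2.3.3, numpy 2.4.6, scipy 1.17.1 and matplotlib 3.10.9 were used. The alternatives were other limits of distance and spacing, names by accession, wide peaks, coding transcripts and nearest starts only.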

Additional observations from a re-analysis of the deposited data

How the results depend on the processing

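Of 40 values recomputed under 8 alternatives, 35 stayed within 1.5 times the reported count or within the reported interval. The number of member genes, 59, became 38 with a distance limit of 500 bases, 89 with 2000 bases and 26 with peaks at or above the list's median width of 229 bases. All 38 and all 26 were among the 59, and all 59 were among the 89, which these settings bring by construction because each only tightens or loosens the rule. With peaks at or above the median width the member peaks fell from 211 to 80 and their median width rose from 243 to 305 bases, which the filter itself brings. Spacing limits of 3000 and 10000 bases gave 74 and 49 genes. Names by accession added MIA2, whose transcripts are listed under 2 symbols. The share of symbols that were members ranged from 0.969% to 1.59% and the median separation from 16703 to 31365 bases. No paired analysis was possible because each group has 1 sample. Without replicates, peak heights or depth, neither the error of a single peak nor its absence at another start could be assessed.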
